A study of Penicillium oxalicum with 6 samples.

Results

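POX01168 to POX01200 is a stretch of consecutive gene identifiers in the filamentous fungus Penicillium oxalicum, and its first 16 genes include some of the most abundant messenger RNAs of a strain that lacks the gene POX00158. The stretch was chosen from measured values, namely the higher levels of its first genes in that strain and their spread among the libraries of the comparison strain, so these differences are described here and not tested. All 33 identifiers from POX01168 to POX01200 were listed in at least 1 library, out of 9284 genes listed in all. Of the 33, 29 had enough reads to enter the test across all genes, and POX01186, POX01187, POX01191 and POX01192 did not.

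RNA of mycelium was sequenced in 3 libraries of MuPOX00158, labelled as a mutant of POX00158, and 3 libraries of Ku70, labelled as a mutant of Ku70, a protein of DNA end joining. Hyphae of either strain were taken after 6 days on plates. About 1 g was shaken for 24 h at 28 °C and 180 rpm in 100 mL of medium with 1% Avicel, a microcrystalline cellulose. The labels do not state whether MuPOX00158 also carries the Ku70 mutation, whether either strain is 1 clone, or whether its 3 libraries stem from 3 cultures, so the spread between libraries may be technical. The series set out to learn how POX00158, described as a phosphokinase, affects transcripts of cellulase and xylanase genes.

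In filamentous fungi, genes that make a secondary metabolite or take up a nutrient often lie side by side and are transcribed together. Fungi on cellulose secrete cellulases, which cut the polymer into sugars that the hyphae take up. Whether neighbouring POX identifiers are neighbours on a chromosome was not determined here. No identifier in the stretch has a gene name or product in the sources used here, so no function is given for any of them, and no sequence is shown.

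The libraries held 2983815 to 3259601 expected counts over 8677 to 8750 listed genes. Reads of POX00158 numbered 1067, 569 and 763 in Ku70 but 4, 8 and 9 in MuPOX00158, which matches the strain labels. On the second principal component of log2 CPM, which held 9.15% of the variance, Ku70 replicate 1 lay at 39.7 and replicates 2 and 3 lay at -25.5 and -14.4. CPM are counts per 1000000 reads, scaled between libraries by TMM factors and not corrected for gene length. FPKM are corrected for length, and levels of different genes are compared in FPKM unless stated otherwise.

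The stretch took 6.49, 5.51 and 5.75% of all reads in MuPOX00158 replicates 1, 2 and 3. Its share was 0.958, 2.73 and 2.02% in Ku70 replicates 1, 2 and 3. Each MuPOX00158 library was above each Ku70 library. The block from POX01168 to POX01183 made up most of this, with 6.09, 5.04 and 5.39% of the reads in MuPOX00158 and 0.396, 1.83 and 1.1955% in Ku70. The other 17 genes, POX01184 to POX01200, went the other way in sum, with 0.392, 0.467 and 0.366% in MuPOX00158 and 0.562, 0.906 and 0.824% in Ku70. Most of that second sum is 1 abundant gene, POX01198, described below. In bulk RNA, more hyphae that transcribe a gene and more transcript per hypha cannot be told apart.

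**Figure D1:**
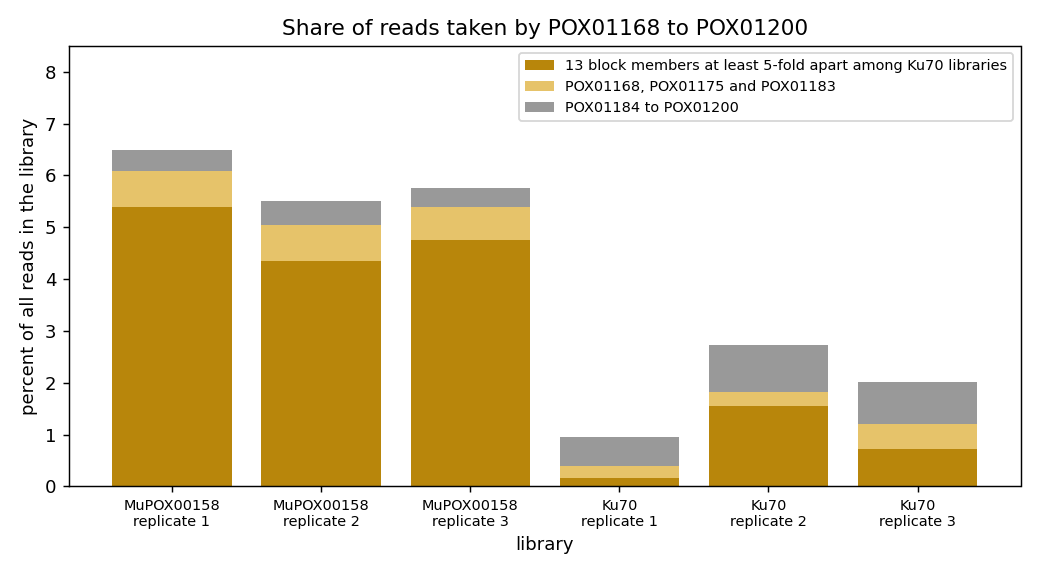
Percent of all reads in each library (bars, 3 per strain) taken by 13 genes of the block that differ at least 5-fold among Ku70 libraries, by the other 3 genes of the block, and by POX01184 to POX01200. The 3 MuPOX00158 bars reach 5.51 to 6.49%, and the Ku70 bars reach 0.958, 2.73 and 2.02%.

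Per length, the block ranked among the most abundant transcripts of the fungus without POX00158. In MuPOX00158, 14 of its 16 genes lay within the 100 genes with the highest mean FPKM, and 8 within the 20 highest. In Ku70, 4 of the 16 lay within the 100 highest and none of the 33 genes within the 20 highest. POX01179 held the second and POX01176 the third place in MuPOX00158, with 11749 ± 1120.0 and 8823 ± 1879 FPKM (SD, n = 3). The lowest FPKM of POX01179 and the highest of POX01176 nearly coincided, at 10806 and 10851, so these 2 genes just overlapped. Next came POX01174 with 4977 ± 407 FPKM and POX01182 with 4926 ± 659.8 FPKM, which did not differ beyond their spread. POX01180, POX01169, POX01173 and POX01181 followed between 4215 and 4421 FPKM, again within each other's spread. The least abundant gene of the block by far was POX01183, at 104 ± 5.33 FPKM.

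The effective gene length implied by count and FPKM ran from 315 bp (POX01172) to 5358 bp (POX01177) in the block, with a median of 793 bp. POX01177, the longest gene of all 33, had the second most reads of the block in MuPOX00158 but only rank 93 per length. No member had a fractional expected count in any library, so none shared reads with a similar sequence in the authors' assignment.

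Of the 29 tested genes of the stretch, 18 were called higher and 3 lower in MuPOX00158 at an adjusted p below 0.05 in edgeR's quasi-likelihood test, beside 18.6% of all tested genes called in each direction. Nothing is read from these counts, since the stretch was chosen on this difference. The number called higher depends on single libraries: it was 9 without MuPOX00158 replicate 1 and 8 without Ku70 replicate 3. Over all tested genes the number called higher fell as well. It was 1442 of 7757 with all libraries, 1010 of 7863 without MuPOX00158 replicate 1 and 1051 of 7846 without Ku70 replicate 3. In the block, 13 of 16 genes were called higher and none lower, while all 16 had no overlap between strains. Over all tested genes, 27.5% had no overlap with MuPOX00158 higher. Lower without overlap were the 3 genes called lower, beside 24.2% of all tested genes. The median log2 fold change was 2.53 over the 16 genes of the block and 0.000292 over all tested genes.

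**Figure D2:**
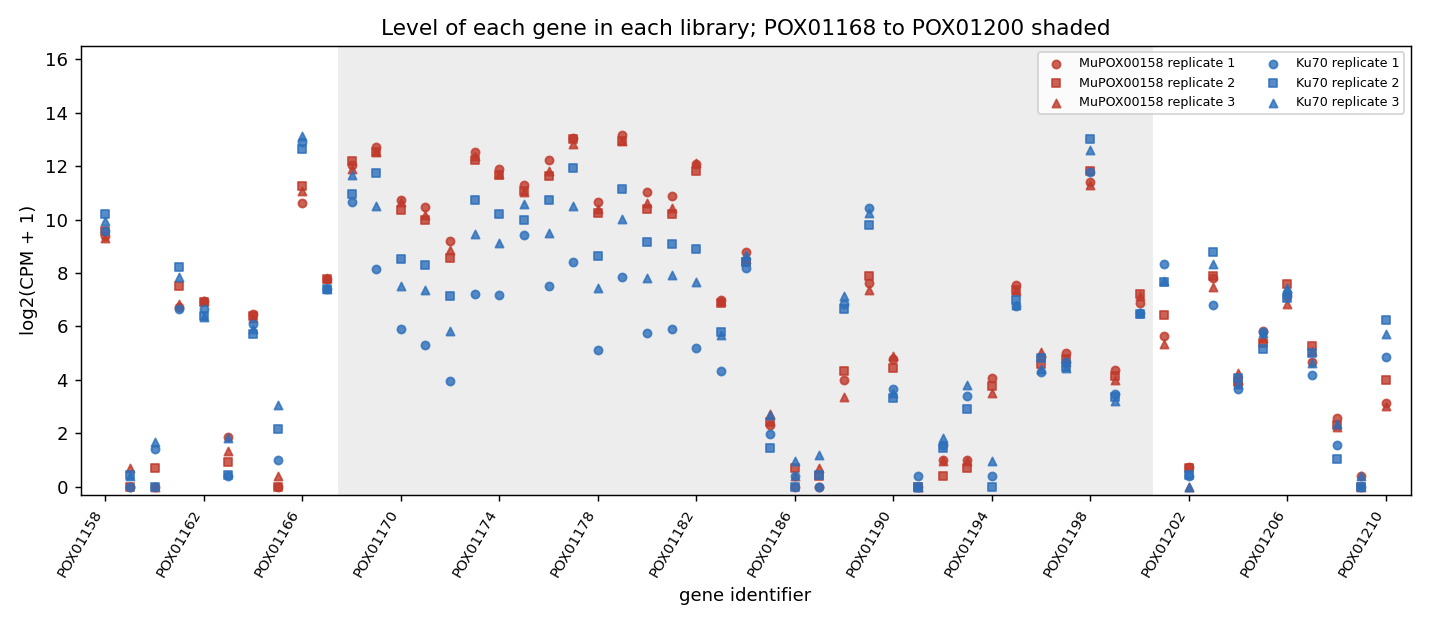
Level of each gene from POX01158 to POX01210 in each of the 6 libraries, as log2(CPM + 1) against the identifier, with POX01168 to POX01200 shaded. In the block the MuPOX00158 libraries lie close together on top, and the Ku70 libraries are spread out below them.

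POX01179 had 9288, 7798 and 7846 CPM in MuPOX00158 replicates 1, 2 and 3 and 228, 2267 and 1041 CPM in Ku70 replicates 1, 2 and 3. The MuPOX00158 libraries were similar, whereas Ku70 replicate 1 was lowest and replicate 2 highest. Its log2 fold change was 2.82 (SE 0.72).

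POX01182 showed the largest fold change of the block. It had 4366, 3569 and 4405 CPM in MuPOX00158 and 35.7, 482 and 199 CPM in Ku70, in the order of the replicates. The lowest MuPOX00158 library was 7.41-fold above the highest Ku70 library, the widest gap in the block, and the log2 fold change was 4.11 (SE 0.82).

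POX01173 had 5887, 4854 and 5258 CPM in MuPOX00158 and 149, 1696 and 708 CPM in Ku70. POX01174 had 3816, 3270.4 and 3342 CPM in MuPOX00158 and 144, 1179 and 552 CPM in Ku70. POX01176 had 4849, 3200.3 and 3600.2 CPM in MuPOX00158 and 182, 1711 and 729 CPM in Ku70. All 3 genes thus had the same order of Ku70 libraries as POX01179, with log2 fold changes of 2.65 (SE 0.74), 2.48 (SE 0.65) and 2.15 (SE 0.69).

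POX01169 and POX01177 did not pass the test, although their strains did not overlap. POX01169 had 6777, 5979 and 5891 CPM in MuPOX00158 and 285, 3441 and 1473 CPM in Ku70, a log2 fold change of 1.84 (SE 0.73). POX01177 had 8458, 8177 and 7239.9 CPM in MuPOX00158 and 336, 3886 and 1459.7 CPM in Ku70, a log2 fold change of 2.07 (SE 0.74). In both, Ku70 replicate 2 stood more than 10-fold above replicate 1. With the library letter as a replicate block, the edgeR adjusted p of POX01177 was 0.0382 in place of 0.0600, which makes 19 members called higher. Without Ku70 replicate 1 both genes passed (adjusted p = 0.0244 for POX01169 and 0.0200 for POX01177 in edgeR), and without Ku70 replicate 2 as well (0.0226 and 0.0130). Neither passed in edgeR without Ku70 replicate 3 (adjusted p = 0.190 and 0.156). Leaving out MuPOX00158 replicate 1, 2 or 3 also left both uncalled in edgeR. The adjusted p was then 0.173, 0.133 and 0.145 for POX01169 and 0.131, 0.107 and 0.107 for POX01177. Both passed in edgeR with plain library sizes (adjusted p = 0.0494 and 0.0340) and in limma on log2(FPKM + 1) (0.0317 and 0.0195). In DESeq2 the adjusted p was 0.0837 for POX01169 and 0.00276 for POX01177, and with upper-quartile factors in edgeR it was 0.0615 and 0.0425. With RLE size factors in edgeR neither passed (adjusted p = 0.0798 and 0.0571). The same held in edgeR without a count filter (0.0764 and 0.0538) and with at least 10 CPM in 3 libraries (0.0783 and 0.0559).

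POX01170, POX01171, POX01172, POX01178, POX01180 and POX01181 took fewer reads in MuPOX00158 than the genes above. Their means, not corrected for length, were 478 to 1673 CPM in MuPOX00158 and 70.3 to 282 CPM in Ku70. In Ku70 POX01182, with a mean of 239 CPM, lay within their range. All 6 were called higher, with log2 fold changes from 2.41 (POX01181) to 2.92 (POX01170).

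**Figure D3:**
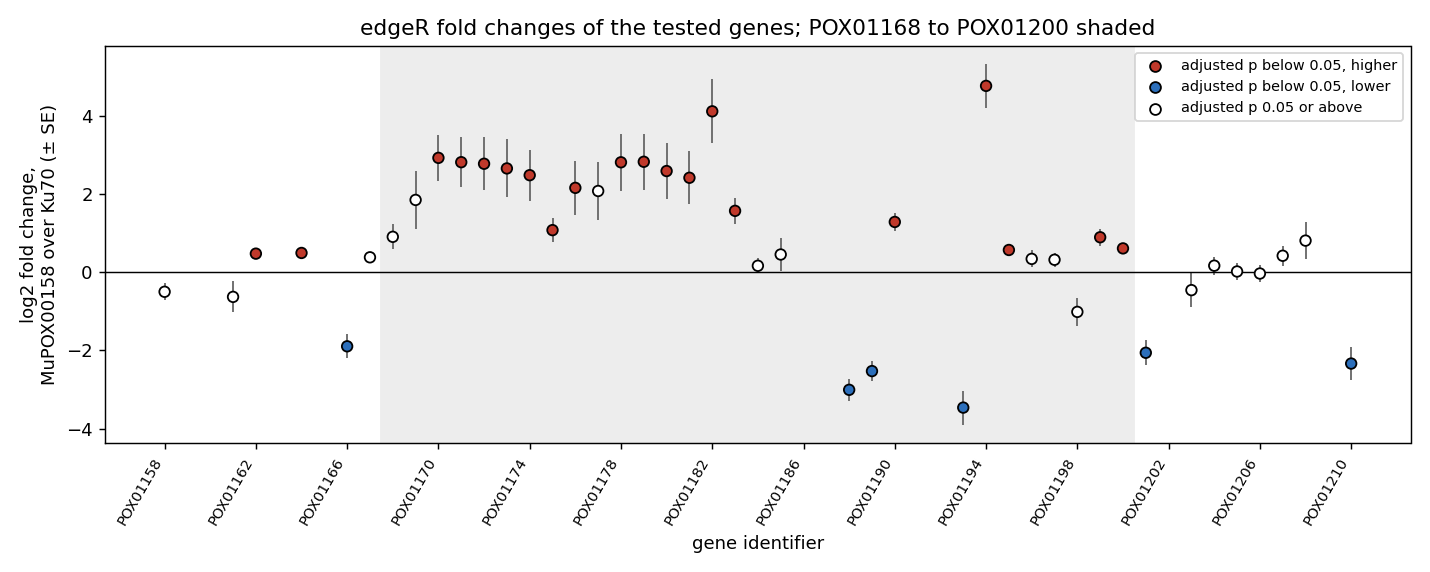
log2 fold change (MuPOX00158 over Ku70) with its standard error from edgeR for each tested gene from POX01158 to POX01210, filled where the adjusted p was below 0.05. Values run from 0.90 at POX01168 to 4.11 at POX01182 within the block. That of POX01194 depends on the prior count, since it had 1, 0 and 3 reads in Ku70.

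The summed stretch differed 3.14-fold between the highest and the lowest Ku70 library. Of the 28 tested members with reads in every Ku70 library, 14 differed at least as much, beside 5.84% of all such genes. Among the 14 was POX01185, a weak gene past the block with 9, 5 and 17 reads in Ku70 and a ratio of 3.16. The spread among Ku70 libraries divided the block into 13 genes and 3 others, at a limit of 5-fold that was set after the values were seen. In POX01169 to POX01174 and POX01176 to POX01182, Ku70 replicate 1 was lowest, replicate 3 intermediate and replicate 2 highest, without exception. Among all genes tested with reads in every Ku70 library, 1.10% had replicate 1 lowest, replicate 2 highest and at least a 5-fold ratio between them. For the 13 genes, replicate 2 was 6.30- to 13.5-fold above replicate 1, replicate 3 was 3.08- to 5.58-fold above replicate 1, and replicate 2 was 1.92- to 2.66-fold above replicate 3. In MuPOX00158 the highest and lowest libraries of these genes differed only 1.15- to 1.59-fold.

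In sum, the 13 genes reached 52745, 43300.0 and 45115 CPM in MuPOX00158 replicates 1, 2 and 3 and 1618, 16983 and 7194 CPM in Ku70 replicates 1, 2 and 3. The size of the strain difference depends on which Ku70 library is taken. The mean of the MuPOX00158 sums was 29.1-fold above Ku70 replicate 1, 2.77-fold above replicate 2 and 6.54-fold above replicate 3. Ku70 replicate 1 also stood apart over all genes, as given above, and its part in this spread was not tested. Between Ku70 replicates 2 and 3 the ratio was 1.92 to 2.66 in the 13 genes. These ratios come from the same libraries and are not independent of each other.

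**Figure D4:**
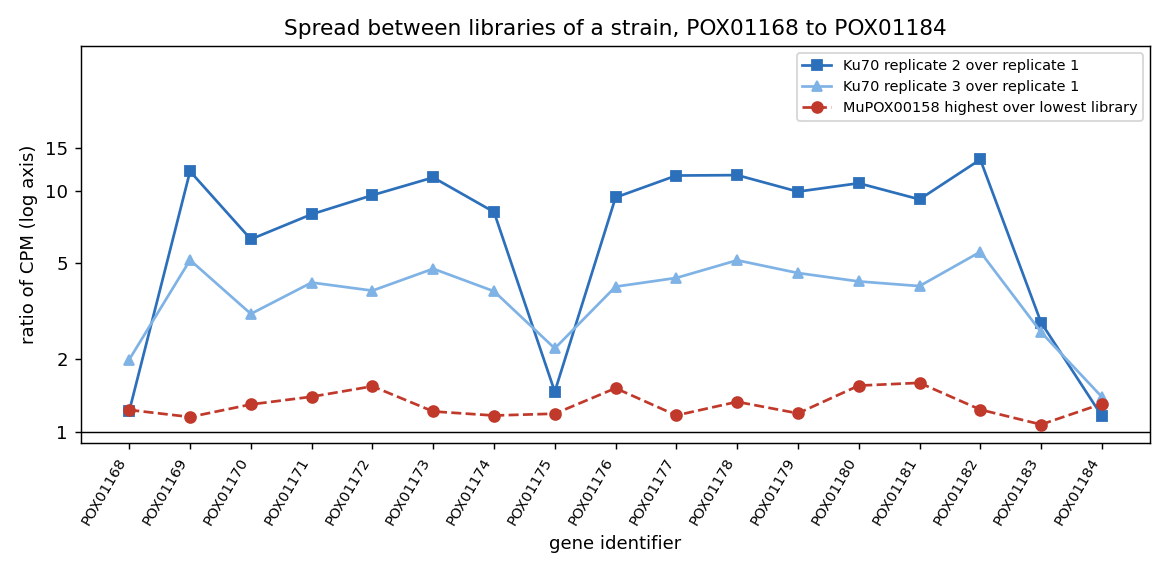
Ratios of CPM between libraries of the same strain for POX01168 to POX01184, on a log axis. Squares and triangles compare Ku70 replicates 2 and 3 with Ku70 replicate 1, and circles give the highest over the lowest MuPOX00158 library. Replicate 2 is 6.30- to 13.5-fold above replicate 1 in 13 genes, with dips at POX01168, POX01175, POX01183 and POX01184.

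Among the Ku70 libraries the proportions of the 13 genes to each other differed 1.08- to 1.67-fold between the highest and the lowest library, while their sum differed 10.5-fold. The 13 genes were picked for a Ku70 ratio of at least 5, so some likeness of their proportions follows from that choice. POX01168, POX01175 and POX01183, with smaller ratios, are left out of these proportions. POX01177, the largest of them by reads in Ku70, held 20.7, 22.9 and 20.3% of the reads of the 13 genes in Ku70 replicates 1, 2 and 3. POX01173 held 9.22, 9.98 and 9.85% there, and POX01180 held 3.25, 3.33 and 3.07%. The share of POX01170 varied most, at 3.61, 2.16 and 2.50%. Next came POX01171, POX01182 and POX01174, whose shares varied 1.31-, 1.29- and 1.28-fold.

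Between the strains these proportions shifted for some genes. As a ratio the shift was largest for POX01182, whose mean share was 3.37-fold higher in MuPOX00158. It held 8.28, 8.24 and 9.76% of the reads of the 13 genes in MuPOX00158 but 2.20, 2.84 and 2.77% in Ku70. POX01179 held 17.7 ± 0.313% in MuPOX00158 and 14.0 ± 0.572% in Ku70 (SD, n = 3 each). POX01169 went the other way, from 19.5 ± 1.58% in Ku70 to 13.2 ± 0.504% in MuPOX00158. In percentage points the shares of POX01169 and POX01182 shifted about equally, by -6.22 and 6.16. For all 3 genes the libraries of the strains did not overlap. The same held for POX01173 and POX01178, whose shares were higher in MuPOX00158. It also held for POX01176 and POX01177, whose shares were lower there, by -2.30 and -4.32 points. The shares of POX01170, POX01171, POX01172, POX01174, POX01180 and POX01181 overlapped between strains. Since shares sum to 100%, a rise of one gene lowers the others.

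Within MuPOX00158 the small spread also ran alike across the 13 genes. Replicate 1 was highest in 12 of them and replicate 2 lowest in 11. These orders were not counted over all tested genes, so they are not called particular to the 13. Replicate 1 of each strain carries the same letter in its title, as does replicate 2, so the libraries with a shared letter stood at opposite ends in the strains for most of these genes.

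POX01168, POX01175 and POX01183 formed the other 3 genes of the block. POX01168 had 4191, 4679 and 3802 CPM in MuPOX00158 and 1612, 1964 and 3213 CPM in Ku70. POX01175, which lies by number in the middle of the block, had 2491, 2174 and 2098 CPM in MuPOX00158 and 688, 1007 and 1524 CPM in Ku70. In both, Ku70 replicate 3 and not replicate 2 was highest, and the Ku70 libraries differed 1.99- and 2.22-fold. Both were already at 1324 and 1522 FPKM in Ku70, where they ranked 97 and 83 among all genes per length. The log2 fold change was 0.90 (SE 0.32) for POX01168, which did not pass the test, and 1.07 (SE 0.31) for POX01175, which was called higher. The 2 genes held 40.9 and 17.5% of the block's reads in Ku70 replicate 1 but 9.82 and 5.03% in replicate 2. In MuPOX00158 they held 7.04 to 9.31% and 4.10 to 4.32%.

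POX01183, the last gene of the block by number, had 125, 117 and 122 CPM in MuPOX00158 and 19.1, 54.3 and 49.5 CPM in Ku70. It shared the order of the Ku70 libraries with the 13 genes, but replicates 2 and 3 were nearly equal and 2.84- and 2.59-fold above replicate 1. It was called higher, with a log2 fold change of 1.56 (SE 0.34).

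**Figure D5:**
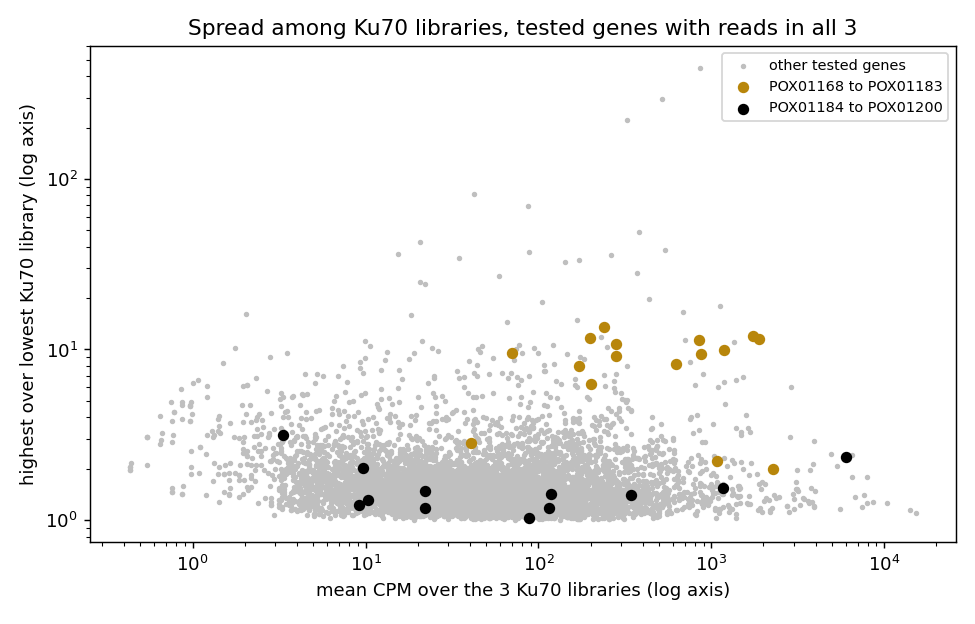
Highest over lowest Ku70 library against the mean CPM in Ku70, both on log axes, for the tested genes with reads in all 3 Ku70 libraries. The block's 13 genes with wide spread lie between 6.30 and 13.5, where the median of all 7671 genes is 1.45, and POX01184 to POX01200 lie between 1.03 and 3.16.

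The level per length changed in a step at the lower edge of the block and, at the other end, between its last 2 genes. On the lower side, POX01167 had 217, 218 and 221 CPM in MuPOX00158 and 169, 169.7 and 166 CPM in Ku70, a log2 fold change of 0.38 (SE 0.13) that did not pass the test. Per length, POX01168 was 24.7-fold above POX01167 in MuPOX00158 and 17.3-fold above it in Ku70, so this step existed in both strains. One number further out, POX01166 fell in MuPOX00158, with 1568, 2469 and 2136 CPM against 7735, 6378 and 8886 CPM in Ku70 and a log2 fold change of -1.90 (SE 0.30). POX01166 is recalled from published work on this fungus as a gene of an endoglucanase, an enzyme that cuts within the cellulose chain. Among Ku70 libraries it differed 1.39-fold, with replicate 2 lowest.

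On the upper side, still within the block, the level dropped from POX01182 to POX01183 by 47.4-fold per length in MuPOX00158 and by 7.95-fold in Ku70. Past POX01183 it was higher again, since POX01184 was 3.19-fold above POX01183 in MuPOX00158 and 8.55-fold above it in Ku70. POX01184, the first gene past the block, had 443, 340.0 and 369 CPM in MuPOX00158 and 290.2, 337 and 404 CPM in Ku70. Its strains overlapped, and its log2 fold change of 0.16 (SE 0.19) did not pass the test. In Ku70 the mean FPKM of POX01184 and POX01182 were alike, at 282 and 262, whereas in MuPOX00158 POX01182 was 14.8-fold above POX01184.

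The remaining 17 genes, POX01184 to POX01200, had no common direction. Of these, 13 were tested, 5 were called higher, 3 lower and 5 in neither direction, beside 18.6% of all tested genes called each way. The largest fold of the genes called lower was that of POX01193, a weak gene with 3, 2 and 3 reads in MuPOX00158 and 29, 19 and 41 reads in Ku70. POX01188 had 15.1, 19.3 and 9.32 CPM in MuPOX00158 and 112, 99.0 and 141 CPM in Ku70, a log2 fold change of -3.01 (SE 0.27). Its neighbour by number, POX01189, had 198, 238 and 165 CPM in MuPOX00158 and 1367, 885 and 1226 CPM in Ku70, a log2 fold change of -2.53 (SE 0.25). In these 3 genes all Ku70 libraries lay above all MuPOX00158 libraries, and Ku70 replicate 2, the highest in the block, was the lowest.

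Higher in MuPOX00158 were POX01190, POX01194, POX01195, POX01199 and POX01200. POX01194 had 48, 41 and 33 reads in MuPOX00158 and 1, 0 and 3 reads in Ku70, so that it was near the limit of detection in Ku70 and no fold is given. POX01190 had 26.5, 20.5 and 28.6 CPM in MuPOX00158 and 11.7, 8.88 and 10.5 CPM in Ku70, a log2 fold change of 1.28 (SE 0.22). The other 3 had log2 fold changes of 0.56 (POX01195), 0.89 (POX01199) and 0.60 (POX01200).

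POX01198 was the most abundant gene past the block and led all 33 genes by reads in Ku70. It had 2747, 3647 and 2518 CPM in MuPOX00158 and 3538, 8309.8 and 6199 CPM in Ku70. The strains overlapped, because Ku70 replicate 1 was below MuPOX00158 replicate 2, and the log2 fold change of -1.02 (SE 0.37) missed the threshold (adjusted p = 0.0616 in edgeR). Ku70 replicate 1 was lowest and replicate 2 highest, the order seen in the block, with a 2.35-fold ratio. Without Ku70 replicate 1 it passed as lower, at a log2 fold change of -1.28 (adjusted p = 0.00849 in edgeR). It also passed as lower in DESeq2 (adjusted p = 0.00650) and with upper-quartile factors in edgeR (0.0416).

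POX01184, POX01185, POX01196 and POX01197 overlapped between the strains and did not pass the test. POX01185 had at most 18 reads in any library. The 4 genes that were not tested had 0 to 8 reads per library, and a count of 0 allows up to 3 reads. At this depth no difference could be seen in them, also not in POX01192, whose 6, 5 and 8 reads in Ku70 and 3, 1 and 3 in MuPOX00158 did not overlap.

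Beyond the stretch, no tested gene among the 10 identifiers on either side differed 5-fold or more between Ku70 libraries. POX01161 and POX01203 differed most in the order of the block, 3.003- and 3.98-fold, more than POX01168, POX01175 and POX01183, and are named after their values were seen. POX01166 was the most abundant of these neighbours per length, with 6403 ± 1339.7 FPKM in Ku70, above every gene of the block there, and 1801 ± 393 FPKM in MuPOX00158. Of POX01158 to POX01167, 6 were tested, of which POX01162 and POX01164 were called higher and POX01166 lower. POX01162 and POX01164 had log2 fold changes of 0.47 and 0.49. Of POX01201 to POX01210, 8 were tested, none was called higher, and POX01201 and POX01210 were called lower. Over all tested genes, 18.6% were called in each direction. POX01201, the nearest to the stretch, had 49.5, 85.4 and 39.8 CPM in MuPOX00158 and 319, 203 and 209 CPM in Ku70, a log2 fold change of -2.06 (SE 0.32). POX01200, just inside, had 116, 148 and 138 CPM in MuPOX00158 and 89.2, 86.4 and 88.9 CPM in Ku70. POX01202 had at most 2 reads in any library.

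The order of the Ku70 libraries in the block was not that of the cellulase genes, which the study was about. Summed over 10 genes recalled as cellulases, Ku70 had 42766, 38029 and 47144 CPM in replicates 1, 2 and 3, with replicate 2 lowest and a 1.24-fold ratio of highest to lowest. Summed over 7 recalled xylanase genes it had 13639, 13108 and 15558 CPM, a 1.19-fold ratio. The block summed to 3937, 20009 and 11980.5 CPM in the same libraries, a 5.08-fold ratio. In MuPOX00158 the block summed to 59552, 50269.9 and 51138 CPM, more than the cellulase genes in either strain, without correction for length. The difference in spread was not tested, since the block was chosen with its spread known.

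Other stretches of identifiers with genes called higher in MuPOX00158 were steadier among Ku70 libraries or ordered them differently. In Ku70 replicates 1, 2 and 3, POX05840 to POX05880 reached 1132, 1539 and 1372 CPM in sum, against 11624, 9015 and 10422 CPM in MuPOX00158, a 1.36-fold ratio of highest to lowest Ku70 library. Its Ku70 libraries thus stood in the order of the block, though much closer together. POX09440 to POX09480 summed to 6955, 2536 and 3039.8 CPM in Ku70, with replicate 1 highest, the reverse of the block. Its sums in MuPOX00158 were 6068, 5464 and 5975 CPM, all below Ku70 replicate 1, so the strains overlapped there. POX03395 to POX03425 was steadiest, with 745, 693 and 751 CPM in Ku70. These differences in spread were not tested.

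Outside the stretch, 60 of 6677 tested genes with a mean of at least 10 CPM in Ku70 had replicate 1 lowest, replicate 2 highest and a ratio of at least 5 between them. Of these 60, 3 were called higher in MuPOX00158, 13 lower and 44 in neither direction. Over all tested genes, 18.6% were called in each direction. The 60 were picked for a wide spread in Ku70, which makes a call harder, so nothing is read from these counts. The 3 called higher were POX05482, POX04215 and POX08048, named after their values were seen. POX05482 had 1053, 729.6 and 991 CPM in MuPOX00158 and 30.8, 253 and 85.7 CPM in Ku70. POX04215 had 952, 802 and 801 CPM in MuPOX00158 and 16.2, 119 and 48.9 CPM in Ku70. POX08048 had 438, 382 and 381 CPM in MuPOX00158 and 7.46, 77.9 and 55.6 CPM in Ku70. Per length these 3 genes had means of 2375, 1923 and 656 FPKM in MuPOX00158, where the 13 genes of the block had 1059.7 to 11749 FPKM.

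By Pearson correlation of log2 CPM over the 6 libraries with the mean of the 18 members called higher, the 5 most similar genes outside the stretch were POX03022, POX02732, POX02856, POX04215 and POX04696. Their correlations were 0.998, 0.996, 0.996, 0.995 and 0.995, which describe 6 libraries of 2 strains and share the strain difference. Similarity of shape did not mean similarity of size. POX04215 had a log2 fold change of 3.80 (SE 0.63), while that of POX02732 was 0.38 (SE 0.14). POX03022, the closest, had 1274, 1196 and 1156 CPM in MuPOX00158 and 378, 714 and 564 CPM in Ku70.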

How the data were processed

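RNA-seq tables of 6 libraries were used, 3 per strain, grouped by the strain label. Replicate numbers follow the order of deposition, and the titles add a letter (F, S or T) to each library of a strain. Each table gives an expected count per gene, the number of reads assigned to it, as the authors deposited it, per the file headers. It also gives an FPKM value, scaled by the authors to gene length and library size per the file headers. The submitters' processing notes name BWA 0.7.10-r789, Bowtie2 2.1.0, DESeq2 and RSEM 1.2.12 with no role for any. For genome build, annotation and strandedness, the sources used here give nothing. A RefSeq table for this species pairs its locus tags with no product and was not used. Genes missing from a table were taken as 0 reads, which allows up to 3 reads for counting error alone. Such limits and intervals cover counting error only.

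After rounding, the expected counts entered edgeR 4.0.16 (R 4.3.3), over 7757 genes kept by filterByExpr (minimum count 10, minimum total 15), with TMM factors and its quasi-likelihood test, whose p-values were adjusted by Benjamini-Hochberg over all of them and called at 0.05. Fold changes are MuPOX00158 over Ku70, and a standard error (SE) is the log2 fold change over the square root of F. CPM use the reads of tested genes times the TMM factor as library size. The effective length is the median over libraries of count over FPKM, rescaled by the library total. The fit was tested on simulated counts with the same dispersion for every gene, a setting that does not cover the wide spread of the block in Ku70. DESeq2 1.42.0 and limma 3.58.1 on log2(FPKM + 1) and log2(FPKM + 0.1) were alternatives, with other scalings, filters, each library left out and the letter as a replicate block. Libraries with the same letter deviated together from their group means over all tested genes (correlations of 0.150, 0.219 and 0.159), and the labels do not say what the letter marks.

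The members, the block, the comparison stretches and the recalled cellulase and xylanase identifiers were chosen with earlier results of these data known. The rule named the 10 members with the highest mean CPM, the ends of the block, its uncalled members and all members called lower. Added to these were the nearest neighbours on each side and POX01166. The rule also took the 5 genes outside the stretch with the most similar profile among those with a mean of at least 10 CPM.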

Additional observations from a re-analysis of the deposited data

How the results depend on the processing

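The 18 members called higher became 5 at an adjusted p below 0.01, where the calls over all tested genes went from 2888 to 1720, fewer by construction. Leaving out 1 library gave 8 (without Ku70 replicate 3) to 20 (without Ku70 replicate 1) members called higher, and 1984 to 3323 genes called in all. The 3 members called lower were 2 to 4 in every alternative. With the replicate block, 19 members were called higher, POX01177 being added (log2 fold change 2.63), and no other call of a member changed. The summed stretch, at a log2 ratio of 1.53, moved by less than the spread between libraries in every alternative, and lay at 1.21 to 1.95 with 1 library left out. The ratio of the highest to the lowest Ku70 library for the sum, 3.14 (95% counting interval 3.10 to 3.19), was 2.85 with plain library sizes, 3.07 with RLE size factors, 2.83 with upper-quartile factors, 3.01 with the filter of 10 CPM in 3 libraries, 3.55 in FPKM, 2.84 without POX01177, 5.69 from the median of the members' log2(CPM + 1), and 5.08 for POX01168 to POX01183 alone, a setting chosen after seeing the data. It was 1.48 to 3.15 with 1 library left out, lowest without Ku70 replicate 1. The tool, the threshold and the block do not enter these sums. Of 209 comparisons of 14 named members with alternatives, 174 kept their side of the threshold, 14 lost a call and 21 gained one, and none reversed. All 14 losses came from leaving out a library, and the cause was not tested. POX01168 passed in DESeq2, limma, and edgeR with plain library sizes (adjusted p = 0.0363) or without Ku70 replicate 3 (0.0216), and in no other edgeR fit. Low depth kept 4 of the 33 genes out of the test.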
